A study of Mus musculus with 5 samples.

Results

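The genes described here are the nuclear-encoded subunits and close partners of the mitochondrial respiratory chain and ATP synthase, measured in single cells of mouse kidney. They were taken by symbol: Ndufa, Ndufb, Ndufc, Ndufs and Ndufv genes, Uqcr genes, Cox genes of families 4 to 8 whose number is followed by a, b or c, Sdha to Sdhd, and Atp5 genes. Of the 28692 gene identifiers in the droplet files, 90 matched the pattern and 87 of them had at least 10 unique molecular identifiers (UMIs, each counting 1 captured RNA molecule) over the 4 libraries. The member with the fewest was Ndufa4l2 with 445 UMIs, and the 3 symbols left out were Cox7b2 and Cox8b with 1 UMI each and Cox8c with 0. Cox4i1 and Cox4i2 fall outside the pattern and were counted with the partner genes.

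The mice, C57/BL6 of 8 weeks, had 1 ureter tied off (unilateral ureteric obstruction, UUO), and in one arm the block was later taken away. Droplet 3′ libraries were made from digested whole kidney sorted for live cells: a sham-operated library (day 0), an obstructed library of day 2, an obstructed library of day 7, and a reversed library of day 14, taken 7 days after release. A library combined the kidneys of 3 mice and had no second library of its condition, so no test between conditions was possible, and every interval below is a 95% interval that covers counting error only. A further sample of 768 Smart-seq2 wells mixed all time points.

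The libraries differed in ways that touch the results. They held 2739 to 5938 cells and 18649637 to 30462683 UMIs. The median cell had 2480.5 UMIs in sham against 4709 to 5668 in the other libraries, and its mitochondrial share of UMIs was 40.6% in sham, 16.2% at day 2, 3.00% at day 7 and 14.0% after reversal. Between 16 and 39 cell barcodes were shared by any pair of libraries. After cells under 200 genes or over 50% mitochondrial UMIs were left out, marker genes assigned the rest to classes, and 77.6% to 97.6% of the kept cells of a library reached one. All markers of each tubule, phagocyte and endothelial class were detected in the cells given its name, with the exception of Sptssb in the thin limb cells of day 7.

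Respiratory complexes I, III and IV pump protons across the inner mitochondrial membrane while passing electrons from NADH to oxygen, complex II feeds in electrons from succinate, and ATP synthase spends the gradient to make ATP. Most subunits are encoded in the nucleus and imported, whereas a small core set is encoded in mitochondrial DNA. In the kidney the proximal tubule, thick ascending limb and distal segments are packed with mitochondria that pay for salt and solute reabsorption, whereas macrophages and endothelial cells depend on them less.

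The 87 genes comprised 7 core subunits of complex I, 29 accessory subunits of complex I, 7 assembly factors of complex I named Ndufaf, 4 subunits of complex II, 8 of complex III, 13 genes of complex IV and 17 named Atp5. Ndufa4 and its relative Ndufa4l2 were kept apart, since Ndufa4 was named for complex I but belongs with complex IV. The Atp5 group included Atp5s and Atp5sl, 2 genes that are not subunits of the enzyme. All 87 were protein-coding in the GRCm38 annotation and lay on 19 chromosomes. Together they gave 3373978 UMIs, of which complex I accessory subunits made up 27.3%, the Atp5 genes 26.2%, complex IV 25.7%, complex III 12.6%, complex I core subunits 2.90%, the Ndufa4 pair 2.86%, complex II 1.89% and the assembly factors 0.515%. The members with the most UMIs were Cox6c (141427) and Cox8a (128385), small subunits of cytochrome c oxidase.

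Promoters are shown for members that the results turn on: Sdha and Uqcrc1, among the largest decreases in thick ascending limb, Ndufb4, among the lowest after reversal in proximal tubule, Atp5g3, which returned to the sham level there, and Cox7a1. In proximal tubule Cox7a1 had the lowest ratio of day 2 to sham and the highest of reversed to day 7. This ranking covers members with at least 100 UMIs over both libraries. Each sequence runs from 250 bases before to 50 after the start of the gene, 5′ to 3′ on the gene's strand, from RefSeq on GRCm38.p6. Capitals mark matches, on either strand, to 4 motifs of factors known for nuclear genes of mitochondria: NRF1 (its consensus, given by name only), GABPA (CCGGAAGT), the ERR family (TCAAGGTCA) and YY1 (AANATGGCG). No matches of different motifs overlapped in the promoters of the members.
Sdha, chr13:74350191-74350490, minus strand: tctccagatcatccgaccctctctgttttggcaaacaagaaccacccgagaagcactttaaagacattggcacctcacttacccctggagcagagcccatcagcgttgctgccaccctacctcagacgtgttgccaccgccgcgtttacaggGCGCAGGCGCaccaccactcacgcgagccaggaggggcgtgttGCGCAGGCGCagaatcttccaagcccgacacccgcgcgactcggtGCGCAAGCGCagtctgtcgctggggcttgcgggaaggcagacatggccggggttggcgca
Uqcrc1, chr9:108936398-108936697, plus strand: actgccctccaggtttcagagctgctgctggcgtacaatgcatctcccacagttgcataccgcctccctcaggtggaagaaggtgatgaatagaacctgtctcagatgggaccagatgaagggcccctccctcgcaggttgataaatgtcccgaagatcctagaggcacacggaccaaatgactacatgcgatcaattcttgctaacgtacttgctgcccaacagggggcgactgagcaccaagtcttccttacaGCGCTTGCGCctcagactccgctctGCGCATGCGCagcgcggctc
Ndufb4, chr16:37654319-37654618, minus strand: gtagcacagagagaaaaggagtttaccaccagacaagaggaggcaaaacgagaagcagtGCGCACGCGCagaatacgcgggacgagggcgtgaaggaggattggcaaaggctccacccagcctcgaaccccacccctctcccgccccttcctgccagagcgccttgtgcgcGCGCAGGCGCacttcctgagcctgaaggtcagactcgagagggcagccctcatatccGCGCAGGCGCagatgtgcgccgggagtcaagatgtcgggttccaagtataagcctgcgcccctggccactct
Atp5g3, chr2:73911277-73911576, minus strand: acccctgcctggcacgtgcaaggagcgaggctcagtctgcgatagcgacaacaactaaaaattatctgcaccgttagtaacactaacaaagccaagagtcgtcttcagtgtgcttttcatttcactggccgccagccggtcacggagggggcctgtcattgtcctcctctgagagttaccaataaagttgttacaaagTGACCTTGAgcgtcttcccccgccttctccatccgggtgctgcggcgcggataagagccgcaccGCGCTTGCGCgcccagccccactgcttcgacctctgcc
Cox7a1, chr7:30183921-30184220, plus strand: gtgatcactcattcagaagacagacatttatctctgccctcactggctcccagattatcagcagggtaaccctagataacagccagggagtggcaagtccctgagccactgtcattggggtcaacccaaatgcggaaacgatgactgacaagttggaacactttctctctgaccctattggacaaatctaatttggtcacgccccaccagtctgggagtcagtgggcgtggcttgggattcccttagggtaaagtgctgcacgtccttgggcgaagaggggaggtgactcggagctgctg
Sdha and Ndufb4 each held 3 matches to the NRF1 letters and Uqcrc1 held 2. Atp5g3 held 1 NRF1 match and 1 ERR match, and Cox7a1 held 0 of any.

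Of the 87 members, 74 matched a promoter by symbol or identifier. The NRF1 letters were present in 25.7% of them (19 genes), against 5.19% of all 27025 genes with a promoter of this length and 9.83% of the 12167 of these that were detected in the droplet libraries. The YY1 letters were present in 14.9%, against 2.76% and 5.00%, the GABPA letters in 6.76%, against 4.31% and 7.66%, and the ERR letters in 2.70% (2 genes), against 0.466% and 0.329%. A match is a run of letters and not a measured binding site.

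Levels are given as a share of nuclear UMIs, meaning all UMIs except those of mitochondrially encoded genes. In proximal tubule cells the 87 genes together took 9.82% of nuclear UMIs in sham (95% interval 9.80% to 9.85%, 2997 cells), 7.09% at day 2 (7.05% to 7.13%, 361 cells), 6.55% at day 7 (6.49% to 6.60%, 146 cells) and 8.58% after reversal (8.55% to 8.61%, 1066 cells). The 2 obstructed libraries were thus the lowest, and the reversed library lay between them and sham. In cells of the thick ascending limb, the segment that reabsorbs salt through Slc12a1, the share was 10.3% in sham (177 cells), 6.81% at day 2 (240 cells), 5.00% at day 7 (109 cells) and 6.66% after reversal (178 cells). Here the reversed library stood at about the day 2 level and below sham.

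In the distal convoluted tubule the share was 11.2%, 4.81%, 4.57% and 7.72% in sham, day 2, day 7 and reversed cells (42, 33, 58 and 81 cells). Intercalated cells, the acid-secreting and base-secreting cells of the collecting duct, had 11.3%, 5.99%, 5.75% and 8.21% (42, 127, 128 and 106 cells). Principal cells, the water-reabsorbing and sodium-reabsorbing cells of the same duct, had 7.93%, 5.33%, 4.39% and 4.68% (59, 70, 85 and 39 cells). In these 3 classes sham was highest and both obstructed libraries were low. The reversed library lay well above day 7 in the first 2 of them and close to it in principal cells. Thin limb cells, at 21 to 53 per library, had 5.44%, 5.47%, 4.58% and 4.32%, with sham and day 2 level. RNA of the proximal tubule profile in cells of another class, scaled on proximal tubule markers, is called free proximal tubule RNA here, although how it came to be counted in those cells was not tested. It amounted to 6.36% of the nuclear UMIs of sham thin limb cells and 0.959% at day 2, and with it subtracted the shares were 5.12%, 5.46%, 4.57% and 4.19%. In sham cells of the other tubule classes it amounted to at least 9.28%, but their sham shares after subtraction, 10.4% in thick ascending limb, 11.3% in distal convoluted tubule, 7.71% in principal and 11.4% in intercalated cells, were near those before it.

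Phagocytes and endothelial cells had lower shares than the tubule classes. Phagocytes took 2.52% in sham (63 cells), 2.74% at day 2 (469 cells), 2.24% at day 7 (2166 cells) and 2.28% after reversal (506 cells). Endothelial cells took 3.03%, 2.73%, 2.23% and 2.29% (236, 155, 475 and 359 cells). Scaled in the same way, free proximal tubule RNA amounted to 8.55% of the nuclear UMIs of sham phagocytes and 8.25% of those of sham endothelium, against 1.04% and 1.17% at day 2, 0.659% and 0.735% at day 7, and 3.66% and 3.54% after reversal. With that RNA subtracted the phagocyte shares were 1.83%, 2.70%, 2.22% and 2.04%, and the endothelial shares 2.41%, 2.68%, 2.20% and 2.06%. Sham was then the lowest library in phagocytes, and day 2 was the highest in both classes. Depth differed too, with a median of 3093, 9879, 6276 and 6461.5 UMIs per phagocyte in sham, day 2, day 7 and reversed libraries. For endothelial cells the medians were 2380.5, 3656, 3452 and 3756 UMIs. Neither class was compared at equal depth, and kinds of phagocyte were not told apart.

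**Figure D1:**
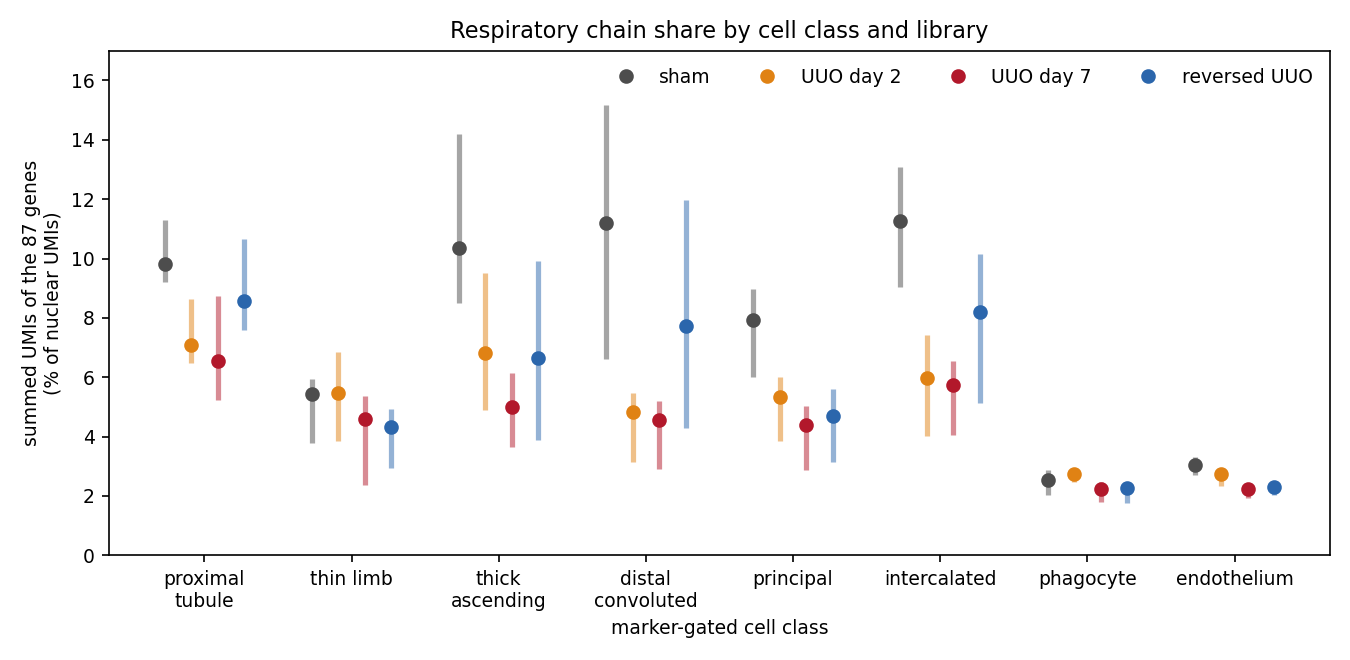
Summed UMIs of the 87 respiratory chain genes as a percentage of nuclear UMIs (vertical axis) in 8 marker-gated cell classes (horizontal axis) of the 4 droplet libraries. Points are values of the summed cells of a library, and bars run from the first to the third quartile over single cells; proximal tubule stands at 9.82% in sham, 6.55% at day 7 and 8.58% after reversal, whereas phagocytes lie between 2.24% and 2.74%.

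The median proximal tubule cell had a share of 10.3% in sham, 7.77% at day 2, 7.31% at day 7 and 9.58% after reversal. This is the order of the summed cells. The 10th percentile of sham cells was 7.64%, and 47.9% of day 2 cells, 52.7% of day 7 cells and 25.3% of reversed cells lay under that value. For the thick ascending limb, where the 10th percentile of sham cells was 5.73%, the corresponding shares of cells were 37.1%, 67.0% and 44.4%. Each of the other libraries thus held cells on both sides of the sham 10th percentile. In the reversed thick ascending limb the quartiles over cells were 3.89% and 9.92%, against 8.52% and 14.2% in sham.

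Ratios between libraries were computed from summed UMIs, with no pseudocount. In proximal tubule the summed share fell by 0.47 on the log2 scale from sham to day 2 (interval -0.48 to -0.46), differed by -0.12 between day 2 and day 7 (-0.13 to -0.10), was 0.39 higher after reversal than at day 7 (0.38 to 0.40) and stood -0.20 from sham after reversal (-0.20 to -0.19). With all UMIs as the denominator these 4 ratios were -0.29, -0.046, 0.22 and -0.11, and with TMM scaling, which moved all genes, -0.63, -0.23, 0.46 and -0.40. Among cells with at most 20% mitochondrial UMIs the ratio of reversed to day 7 was 0.20. Phagocyte markers also moved with the library, with a median of 0%, 0.0772%, 0.384% and 0.143% of the nuclear UMIs of proximal tubule cells in sham, day 2, day 7 and reversed libraries, against 2.92% to 4.25% in phagocytes. Scaled on these markers, phagocyte RNA amounted to 0.288%, 2.70%, 9.73% and 3.29% of the nuclear UMIs of proximal tubule cells, and how it came to be counted there was not tested. With it subtracted the 4 ratios were -0.45, -0.045, 0.33 and -0.16, so the step from day 2 to day 7 was mostly lost and the other 3 kept most of their size. These comparisons share libraries and are not independent of each other. A member was counted as past the fold where its level per 1000000 nuclear UMIs (CPM), with 1 added, differed at least 1.5-fold between the libraries, among members with at least 30 UMIs over both. At day 2, 15 of 86 members were at least 1.5-fold lower than in sham, against 8.32% of all genes, and 1 was higher, Cox6b2, against 15.2% of all genes. With a fold of 2 the lower members were 2 of 86, against 2.48%. In all, 79 of the 86 lay below the sham level, as did 44.3% of all genes, and the median member differed by -0.41 where the median gene differed by 0.06.

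Between day 2 and day 7 2 of 83 members in proximal tubule were at least 1.5-fold higher, Ndufaf4 and Atp5sl (14.8% of all genes), and 0 were lower (9.72% of all genes), with a median member ratio of -0.10. After reversal 14 of 86 were at least 1.5-fold higher than at day 7, close to the 13.4% of all genes, or 7 against 15.8% with phagocyte RNA subtracted, and 1 was lower, Ndufaf6 (12.8% of all genes), although 77 of the 86 lay above the day 7 level, as did 50.1% of all genes. Against sham, 0 of 86 reversed members were 1.5-fold lower (2.21% of all genes) and 0 were higher (17.1% of all genes). The differences in proximal tubule were thus small per gene and in 1 direction for most members.

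The members with the most UMIs over all cells and libraries are given first for 3 complexes, with their levels in proximal tubule. Cox6c, a structural subunit of cytochrome c oxidase, had 4572 CPM in sham, 2945 at day 2, 2674 at day 7 and 4061 after reversal. Atp5l, subunit g of ATP synthase, had 2916, 2029, 1977 and 2452 CPM. Uqcrb, a small subunit of complex III, had 2260, 1717, 1606 and 1731 CPM. All 3 were highest in sham, but the reversed value of Uqcrb stayed near the obstructed ones, at -0.38 from sham (interval -0.43 to -0.34), whereas those of Cox6c and Atp5l were -0.17 (-0.20 to -0.14) and -0.25 (-0.28 to -0.21).

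By complex, the proximal tubule ratio of day 2 to sham was -0.55 for complex IV, -0.52 for complex III, -0.47 for the Atp5 genes, -0.45 for complex II, -0.39 for the accessory and -0.28 for the core subunits of complex I, and -0.16 for its assembly factors. The counting intervals of complex IV (-0.57 to -0.53) and complex I core (-0.34 to -0.23) did not overlap. After reversal all groups stood between -0.14 and -0.24 from sham. Complex I core, at -0.23 (-0.27 to -0.20), was then no nearer to sham than complex IV at -0.19 (-0.20 to -0.17). The order of the complexes seen at day 2 was therefore not that of the reversed library.

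**Figure D2:**
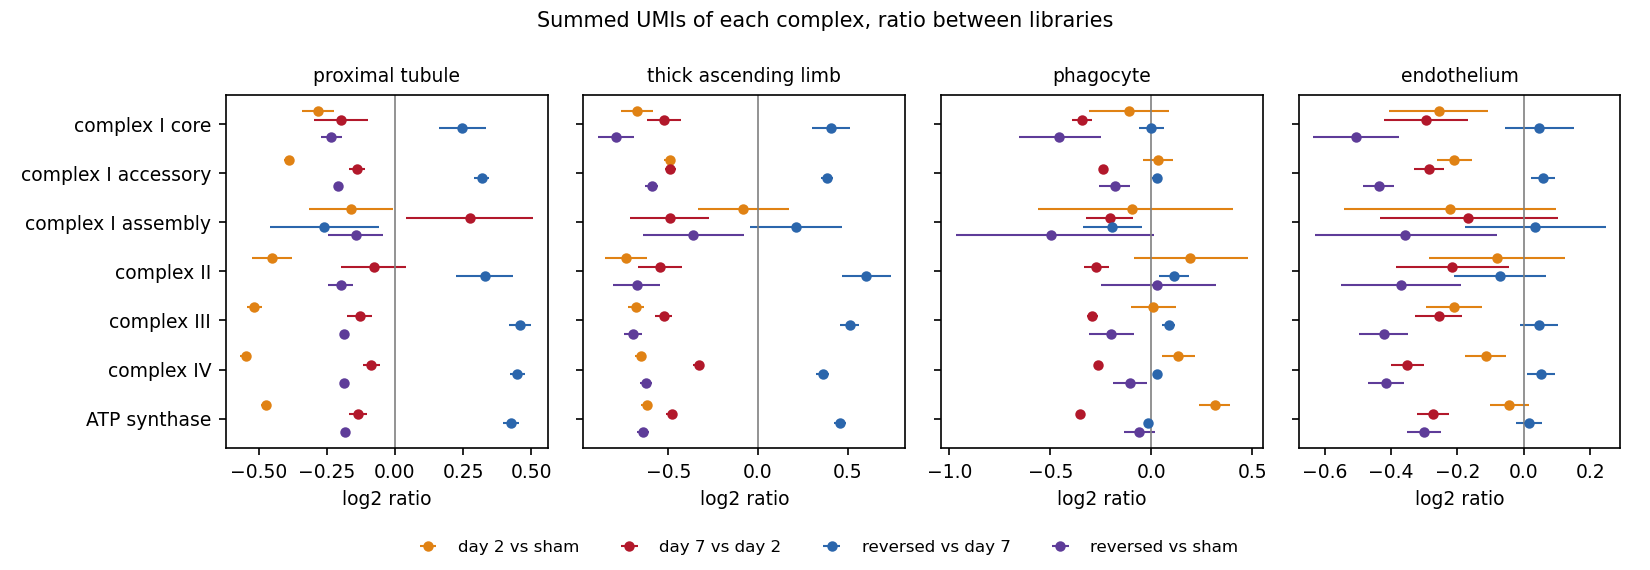
Log2 ratio between libraries of the summed UMIs of each complex per nuclear UMIs (horizontal axis, scaled separately per panel) for 7 gene groups (vertical axis) in 4 cell classes. Colours mark the comparison and bars are counting intervals; in thick ascending limb each group but the assembly factors lies between -0.49 and -0.74 at day 2 against sham, and in proximal tubule each but the assembly factors lies between -0.28 and -0.55.

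Members with at least 100 UMIs over both libraries were ranked by their ratios. Cox7a1, the heart and muscle form of a cytochrome c oxidase subunit, had 109 CPM in sham, 45.3 at day 2, 31.8 at day 7 and 112 after reversal. It was low in both obstructed libraries and had the most extreme ratio of the ranked members in each direction, -1.25 (interval -1.64 to -0.89) at day 2 against sham and 1.78 (1.17 to 2.47) after reversal against day 7. Its level also differed by segment: cells marked by genes of the first segment (S1) had 124, 61.9, 47.4 and 124 CPM on 551, 58, 7 and 376 UMIs, and cells marked by genes of the last (S3) had 68.1, 7.79, 29.0 and 86.9 CPM on 54, 1, 7 and 33 UMIs. S1-marked cells outnumbered S3-marked cells by 2082 to 385 in sham, 249 to 32 at day 2 and 781 to 102 after reversal, but numbered 42 to 48 at day 7. Within S1-marked cells the obstructed libraries were again the lowest, with the day 7 value on few UMIs. Ndufc1, an accessory subunit of complex I, had 1295, 739, 724 and 1191 CPM and the second-lowest ratio at day 2, -0.81 (-0.90 to -0.72). Uqcr11, a small subunit of complex III, followed with 2707, 1614, 1486 and 2251 CPM and -0.75 (-0.81 to -0.68).

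Against the trend, Cox6b2, the testis form of a cytochrome c oxidase subunit, had 21.6 CPM in sham, 46.7 at day 2, 31.8 at day 7 and 23.2 after reversal. Its day 2 value was the highest, with a ratio of 1.08 to sham, on 137, 65, 22 and 96 UMIs. In principal cells it had 4.37, 62.2, 23.4 and 15.7 CPM, but on 1, 38, 12 and 4 UMIs, and in thick ascending limb 31.7, 28.3, 16.2 and 12.2 CPM, on 14, 44, 15 and 11 UMIs. Day 2 was thus its highest library in principal cells too, and not in thick ascending limb. Its widely expressed counterpart Cox6b1 had 2736, 1854, 1657 and 2347 CPM, with sham highest. Ndufaf4, an assembly factor of complex I, had 94.9, 60.4, 126 and 86.4 CPM. Day 7 was its highest library, 1.05 above day 2 (0.60 to 1.49) on 84 and 87 UMIs. It too differed by segment, with 82.4, 60.8, 115 and 76.7 CPM in S1-marked cells on 367, 57, 17 and 232 UMIs, and 135, 77.9, 137 and 137 CPM in S3-marked cells on 107, 10, 33 and 52 UMIs. Day 7 was thus the highest library in S1-marked cells but level with sham and reversed in S3-marked cells, and day 2 was the lowest in both. Among members with at least 100 UMIs the lowest ratios of day 7 to day 2 were those of the accessory subunit Ndufa3 (1228 and 874 CPM) and of Atp5g2 (594 and 425 CPM).

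The members lowest in reversed proximal tubule against sham were 3 complex I genes. Ndufs7, a core subunit that carries an iron-sulfur cluster, had 484, 371, 351 and 355 CPM, so that the reversed library was level with the obstructed ones, at -0.45 from sham (-0.54 to -0.36). Ndufb4 (1332, 1007, 924 and 1000 CPM) and Ndufa5 (1032, 786, 647 and 778 CPM), both accessory subunits, stood at -0.41 (-0.47 to -0.36) and -0.41 (-0.47 to -0.35). Ndufa1, another accessory subunit, had 1123, 818, 670 and 1115 CPM, with reversed and sham levels within counting error of each other. Members of a single complex thus ended at different distances from sham.

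In the thick ascending limb the summed share fell by 0.60 from sham to day 2 (interval -0.62 to -0.59) and by a further 0.45 to day 7 (-0.46 to -0.43). It was 0.41 higher after reversal than at day 7 (0.40 to 0.43) and remained at -0.64 from sham (-0.65 to -0.62). Among cells with at most 20% mitochondrial UMIs the ratio of reversed to day 7 was 0.00082 and that of reversed to sham -0.81. With all UMIs as the denominator the 4 ratios were -0.35, -0.26, 0.24 and -0.37, and with TMM scaling that of day 2 to sham was -0.36. At day 2, 37 of 84 members were at least 1.5-fold lower than in sham, against 23.8% of all genes, and 0 were higher (12.4% of all genes). At day 7, 23 of 84 were lower than at day 2, against 9.74% of all genes. After reversal 17 of 82 were higher than at day 7 (15.5% of all genes), 0 were lower (6.92% of all genes), and 50 of 81 were lower than in sham, against 15.2% of all genes. These counts rest on the fold chosen: with a fold of 2 they were 2 of 84 lower at day 2 (8.54% of all genes), 0 lower at day 7 (2.49%), 2 higher after reversal than at day 7 (4.35%) and 2 of 81 lower than in sham (3.96%), each below the share of all genes. Phagocyte RNA, scaled on its markers, amounted to 0.259%, 2.45%, 7.08% and 2.65% of the nuclear UMIs of sham, day 2, day 7 and reversed cells, and with it subtracted the 4 summed ratios were -0.58, -0.41, 0.38 and -0.61. At the fold of 1.5, 30 of 84 members were then lower at day 2 than in sham (23.5% of all genes). At day 7, 20 of 84 were lower than at day 2 (10%). After reversal 13 of 82 were higher than at day 7, level with the 15.9% of all genes, and 45 of 81 lower than in sham (15%). The median member ratio of reversed to sham was -0.63, where the median gene stood at -0.02.

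**Figure D3:**
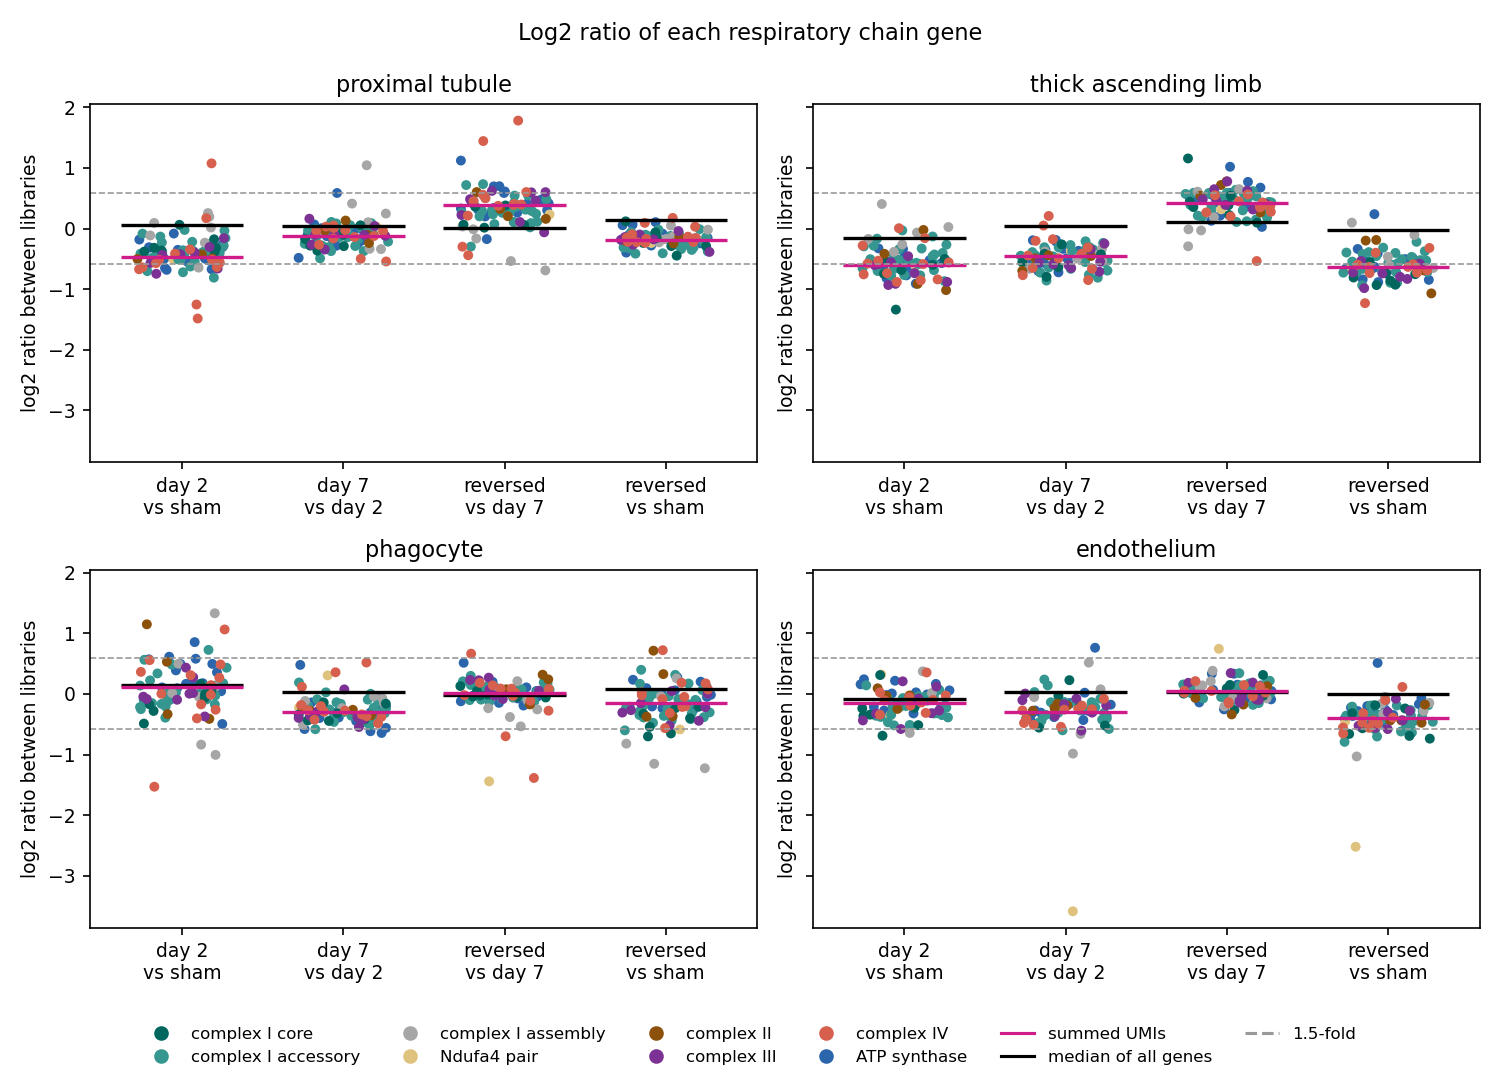
Log2 ratio between libraries of each member with at least 30 UMIs over both (vertical axis, CPM with 1 added) for 4 comparisons (horizontal axis) in 4 cell classes. Each point is a gene coloured by complex, black lines are the median of all genes, magenta lines the ratio of the members' summed UMIs and dashed lines 1.5-fold; in thick ascending limb the magenta line lies below the black line at day 2, at day 7 and after reversal against sham, with single points above it such as Cox7a2l at 0.21 at day 7, and the lone point near -3.59 in endothelium is Ndufa4l2.

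Ndufs1, the large core subunit of complex I that carries iron-sulfur clusters, had 224 CPM in sham thick ascending limb, 88.1 at day 2, 59.4 at day 7 and 134 after reversal. Among members with at least 100 UMIs over both libraries this was the lowest ratio of day 2 to sham, -1.34 (-1.71 to -0.95), on 137 and 99 UMIs. In proximal tubule the same gene had 132, 106, 110 and 143 CPM, with no order that left sham highest. Sdha, the flavin subunit of succinate dehydrogenase, had 656, 324, 237 and 407 CPM in thick ascending limb and a day 2 ratio of -1.02 (-1.23 to -0.80). Uqcr11 had 2722, 1427, 950 and 1630 CPM there, with -0.93 (-1.03 to -0.83). Ndufs1, Sdha and Atp5sl, a gene named for ATP synthase that acts in complex I assembly, had the highest ratios of reversed to day 7 among members with at least 100 UMIs, 1.16, 0.78 and 1.02.

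The subunits of succinate dehydrogenase did not stay together in this segment. Sdhb, the iron-sulfur subunit, had 803, 427, 263 and 383 CPM and the lowest ratio of reversed to sham among members with at least 100 UMIs, -1.07 (-1.29 to -0.85). Sdhc, a membrane anchor, had 278, 208, 148 and 244 CPM, and its reversed value was within counting error of sham at -0.19 (-0.51 to 0.14). Sdhd, the other anchor, had 220, 216, 159 and 191 CPM, with sham and day 2 level. Both catalytic subunits were thus far below sham at day 2, and Sdhd was not. In proximal tubule all 4 lay close together at day 2, between -0.41 and -0.50.

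Other members with at least 100 UMIs and far from sham in the reversed thick ascending limb were Uqcrc1, a core protein of complex III (652, 346, 236 and 329 CPM, -0.98 with interval -1.22 to -0.74), and Ndufb2, an accessory subunit of complex I (1046, 610, 416 and 546 CPM, -0.94 with interval -1.12 to -0.75). Both had their lowest level at day 7. Among members with at least 100 UMIs the lowest ratios of day 7 to day 2 were those of the accessory subunits Ndufb7 (648 and 358 CPM, -0.86) and Ndufa3 (1160 and 661 CPM, -0.81), and of Cox7a1 (57.3 and 31.3 CPM, -0.85, on 89 and 29 UMIs).

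The 3 Cox7a genes went separate ways. In intercalated cells Cox7a1 had 518 CPM in sham, 125 at day 2, 112 at day 7 and 332 after reversal. In principal cells it had 398, 83.5, 62.5 and 47.1 CPM, on 91, 51, 32 and 12 UMIs, with no return toward sham. In the distal convoluted tubule it had 106, 18.1, 16.0 and 99.2 CPM, on 10, 4, 7 and 48 UMIs. In thin limb it had 244, 55.6, 153 and 102 CPM, on 25, 25, 32 and 22 UMIs, and in thick ascending limb 97.3, 57.3, 31.3 and 40.9 CPM, on 43, 89, 29 and 37. With proximal tubule, its level was lower at day 2 than in sham in 6 tubule classes, although the distal convoluted tubule fell short of the minimum of 30 UMIs over both libraries. The reversed level reached that of sham in proximal tubule, and in distal convoluted tubule, on 10 sham UMIs, the ratio of reversed to sham was -0.10 (-1.09 to 1.04).

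Cox7a2, the form found in most tissues, had 3101, 1433, 1539 and 2187 CPM in intercalated cells and 2640, 1847, 1816 and 2407 in proximal tubule, sham being highest in both. Cox7a2l, a relative of Cox7a2, was as high or higher in both obstructed libraries than in sham in 4 tubule classes. Its levels were 284, 321, 328 and 266 CPM in proximal tubule, 428, 430, 497 and 343 in thick ascending limb, 387, 508, 494 and 444 in intercalated cells and 236, 444, 406 and 365 in principal cells. In thick ascending limb it was at its highest at day 7, 0.21 above day 2 (0.04 to 0.38), and it had the lowest ratio of reversed to day 7 among members with at least 100 UMIs, -0.53 (-0.75 to -0.32). In phagocytes, by contrast, its highest library was sham, with 605, 457, 496 and 409 CPM.

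**Figure D4:**
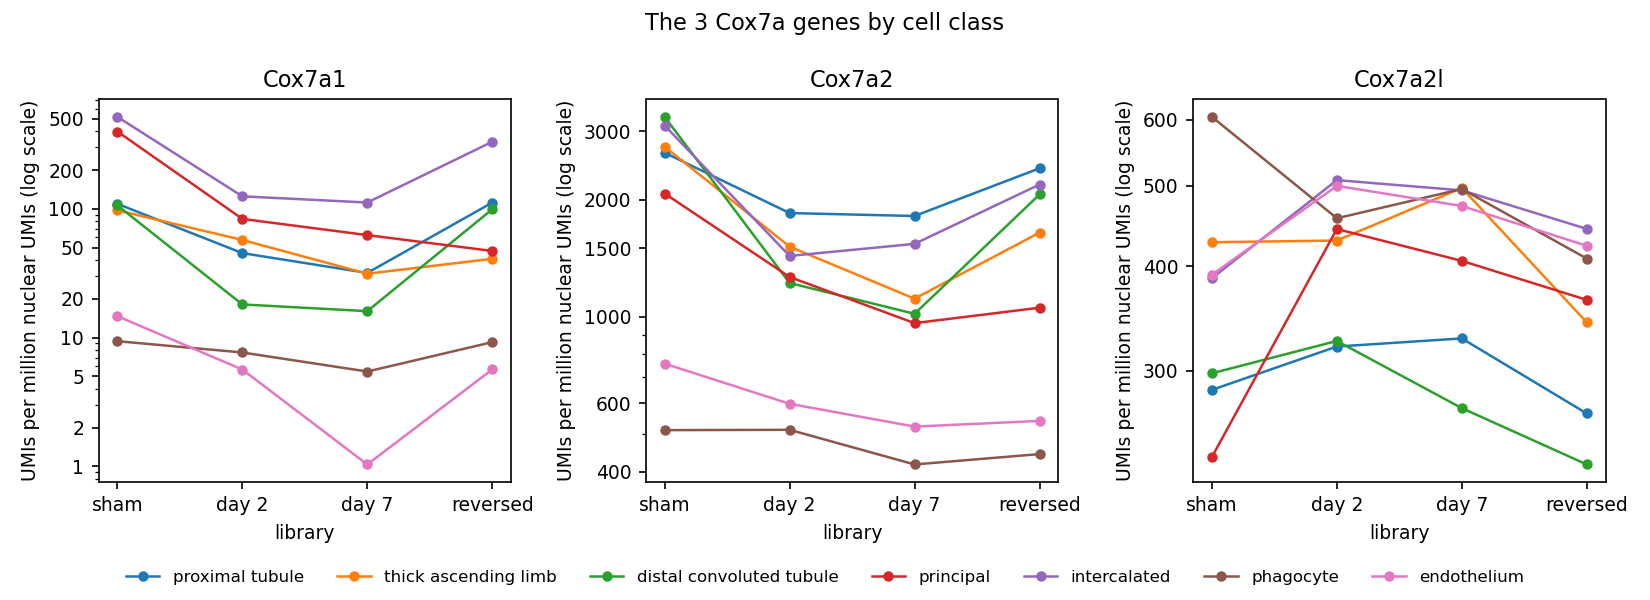
CPM (vertical axis, log scale, scaled separately per panel) of Cox7a1, Cox7a2 and Cox7a2l in the 4 droplet libraries (horizontal axis). Each line joins the values of 1 cell class, and the thin limb is not drawn. Cox7a1 in intercalated cells lies at 518 in sham and 112 at day 7, whereas Cox7a2l in proximal tubule lies at 284 and 328.

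The 3 genes for the c subunit of ATP synthase, whose mature proteins are the same, also differed. In proximal tubule Atp5g1 had 2269, 1425, 1254 and 1917 CPM, Atp5g3 had 1226, 844, 848 and 1275, and Atp5g2 had 628, 594, 425 and 534. Atp5g1 and Atp5g3 were low at day 2, whereas Atp5g2 was near sham at day 2 and lower at day 7, with a day 2 ratio of -0.08 (-0.19 to 0.03). In phagocytes day 2 was the highest library of all 3: Atp5g1 had 431, 565, 361 and 373 CPM, Atp5g2 389, 499, 333 and 326, and Atp5g3 150, 212, 162 and 176. After subtraction of free proximal tubule RNA the sham levels were 258, 364 and 49.2 CPM, and sham was then the lowest library for Atp5g1 and Atp5g3. Atp5g1 had there the lowest ratio of day 7 to day 2 of any counted member, -0.64 (-0.71 to -0.58).

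Among the remaining forms, Cox6a1 and Cox8a followed the summed share in proximal tubule, with 3199, 2009, 1846 and 2719 CPM and 3939, 2529, 2464 and 3373 CPM. Cox7b had 1279, 862, 868 and 1127 CPM. Cox6a2, the heart and muscle form of Cox6a1, had 75, 5, 3 and 56 UMIs in proximal tubule, or 11.8, 3.59, 4.33 and 13.5 CPM. It was thus low in both obstructed libraries on very few molecules. In S1-marked cells it had 15.9, 4.27, 13.6 and 16.9 CPM on 71, 4, 2 and 51 UMIs, and in S3-marked cells 1, 0, 0 and 1 UMIs. Within S1-marked cells only day 2 was low, and the day 7 value rests on 2 UMIs. Ndufa4 had 3455, 2438, 2492 and 2930 CPM.

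Ndufa4l2, a hypoxia-responsive relative of Ndufa4, was nearly missing from tubule cells, with 0 to 4 UMIs per class and library. In endothelial cells it had 73.3 CPM in sham, 91.8 at day 2, 6.72 at day 7 and 11.9 after reversal, on 45, 65, 13 and 19 UMIs. Its ratio of -3.59 between day 2 and day 7 (-4.40 to -2.80) was the lowest of any member counted in that class. These UMIs came from 13, 10, 9 and 8 cells. Those cells held 3107, 6205, 781 and 4571 CPM of a list of 9 genes of pericytes and smooth muscle (Rgs5, Notch3, Pdgfrb and others), whereas the other endothelial cells held 66.3, 80.2, 150 and 106 CPM. Of the 9 genes, 8 to 9 were detected in the cells with Ndufa4l2, and 5, 8, 9 and 9 in the others. Cells with Ndufa4l2 also had more UMIs, with medians of 4393, 9950.5, 5220 and 11303.5 against 2356 to 3727 in those without it. The list was chosen after these values were seen. Cells gated as fibroblast or mural numbered 1, 5, 75 and 64 in the 4 libraries and held 0, 7, 58 and 23 UMIs of Ndufa4l2. At day 7 and after reversal that class held more of its UMIs than endothelium did. The part of such cells in the endothelial ratio was not tested.

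In phagocytes the summed share was 0.12 higher at day 2 than in sham (interval 0.08 to 0.16), or 0.56 higher with free proximal tubule RNA subtracted, and fell by 0.29 from day 2 to day 7 (-0.30 to -0.28). The reversed library stood 0.02 above day 7, a difference whose sign turned with TMM scaling (-0.015) and with free proximal tubule RNA subtracted (-0.12). It stood at -0.15 from sham, which became 0.16 with that RNA subtracted. At day 2, 6 of 85 members were at least 1.5-fold higher than in sham, against 29.7% of all genes, and 3 were lower, Ndufaf1, Ndufaf7 and Cox6a2 (19.2% of all genes). With free proximal tubule RNA subtracted 36 of 85 were higher, against 34% of all genes, with a median member ratio of 0.49 where the median gene stood at 0.21. At day 7, 2 of 87, Atp5g1 and Atp5b, were lower than at day 2 (11.1% of all genes), although 78 of the 87 lay below the day 2 level, as did 47.6% of all genes. After reversal 3 of 87 were lower than at day 7, Ndufa4l2, Cox6a2 and Cox6b2, against 4.89% of all genes, and 7 of 82 reversed members were lower than in sham, against 15.9%. After subtraction 14 of 82 reversed members were higher than in sham, against 31.7% of all genes, and 5 were lower, against 16.2%.

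Within phagocytes the ratio of day 2 to sham differed between complexes and moved with the free RNA in sham. The summed ratio of the Atp5 genes was 0.31 (interval 0.24 to 0.39), against 0.13 (0.05 to 0.21) for complex IV, 0.01 (-0.10 to 0.12) for complex III, 0.03 (-0.04 to 0.11) for the accessory and -0.11 (-0.31 to 0.09) for the core subunits of complex I. With free proximal tubule RNA subtracted the same ratios were 0.70 for the Atp5 genes, 0.66 for complex IV, 0.48 for complex III, 0.45 for the accessory and 0.076 for the core subunits of complex I. The Atp5 genes were then close to complex IV, and the core subunits of complex I still had the lowest of these 5 ratios. Atp5f1, a stalk subunit, had 277 CPM in sham, 501 at day 2, 382 at day 7 and 335 after reversal, with a day 2 ratio of 0.85 (0.48 to 1.25), and its sham and day 2 levels were 219 and 500 CPM after subtraction. Atp5b, the catalytic beta subunit, had 520, 733, 478 and 515 CPM. Both had day 2 as their highest library. Sdhd, a membrane anchor of succinate dehydrogenase, had 51.6, 116, 96.2 and 85.2 CPM, on only 11 UMIs in sham. After subtraction its levels were 32.4, 115, 95.5 and 79.9 CPM.

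Cox6a2 in phagocytes had 23.4, 7.46, 11.1 and 3.63 CPM, on 5, 37, 157 and 13 UMIs. The 5 sham UMIs came from 1 cell. It had 14400 CPM of 7 genes listed for plasmacytoid dendritic cells, against 1019 in the other sham phagocytes. The listed genes were Siglech, Bst2, Ccr9, Tcf4, Irf8, Ly6d and Klk1. The 50 day 7 cells that held Cox6a2 had 3689 CPM of these genes, against 895 in the other phagocytes of that library. At day 2 the corresponding values were 12000 in 5 cells and 478 in the others, and after reversal 1069 in 13 cells and 868. This list, too, was chosen after the values were seen. Outside phagocytes, the 36 neutrophil-gated cells of day 7 held 10 UMIs of Cox6a2, or 77.8 CPM, and those of day 2 and the reversed library held 0.

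In endothelial cells the summed share stood at -0.15 from sham at day 2 (interval -0.18 to -0.12), a difference that became 0.15 with free proximal tubule RNA subtracted. It fell by 0.29 from day 2 to day 7 (-0.32 to -0.27). Reversed and day 7 cells differed by 0.04, which became -0.01 with TMM or median-of-ratios scaling and -0.09 after subtraction. The reversed library stood at -0.40 from sham after reversal (-0.43 to -0.38), or -0.22 after subtraction. At day 2, 2 of 79 members were at least 1.5-fold lower than in sham, Ndufs3 and Ndufaf4 (14% of all genes). At day 7, 5 of 81 were lower than at day 2, Ndufa4l2, Ndufaf7, Ndufaf2, Uqcr11 and Ndufv3 (10.2% of all genes). After reversal 12 of 82 were lower than in sham, against 12.5% of all genes, or 7 after subtraction, against 12.3%, and 1 of 83 was higher than at day 7, Ndufa4l2 (6.75% of all genes). These counts were near or under the share of all genes. Even so, 72 of 81 members lay below the day 2 level at day 7, as did 47.2% of all genes. In the reversed library 80 of 82 lay below the sham level, as did 50.6% of all genes. The median member ratio of reversed to sham was -0.38, where the median gene stood at -0.01. After subtraction these medians were -0.22 and -0.0035.

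Ndufa7, an accessory subunit of complex I, had 529 CPM in sham endothelium, 473 at day 2, 317 at day 7 and 305 after reversal, and the lowest ratio of reversed to sham among members with at least 100 UMIs, -0.79. Ndufv1, the NADH-binding core subunit, had 155, 120, 83.3 and 92.4 CPM. Ndufs5, an accessory subunit, had 381, 332, 230 and 234 CPM. All 3 had both late libraries lowest. Cox7a2l had 391, 500, 473 and 424 CPM with day 2 highest, 0.35 above sham (0.11 to 0.60). Ndufa4l2 and Ndufv2 followed at 0.32 and 0.31 among members with at least 100 UMIs. In all, 19 of 79 members lay above the sham level at day 2, as did 42.5% of all genes. With free proximal tubule RNA subtracted, day 2 was the highest library of the summed share as well. Uqcr10, a small subunit of complex III, had 627, 419, 373 and 425 CPM. After subtraction of free proximal tubule RNA these levels were 434, 400, 363 and 346 CPM. Most of the height of sham over day 2 was then gone, but sham was still the highest library.

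The distal convoluted tubule and the collecting duct had larger counts than proximal tubule at day 2, and the thin limb did not. In the distal convoluted tubule the summed ratio was -1.22 at day 2 against sham (interval -1.26 to -1.18), with 66 of 74 members at least 1.5-fold lower against 24.5% of all genes. It was 0.76 after reversal against day 7 (0.73 to 0.78), with 63 of 79 members higher against 14.8% of all genes. Intercalated cells had -0.91 at day 2 (-0.93 to -0.89), with 73 of 82 members lower against 21.8% of all genes, and 0.51 after reversal against day 7, with 28 of 84 higher against 11.7% and 0 lower against 7.55%. Principal cells had -0.57 at day 2, with 40 of 80 lower against 21.7%, and -0.76 after reversal against sham (-0.80 to -0.73), with 54 of 78 lower against 21.3%. Of the intercalated members, 81 of 84 lay above the day 7 level, as did 58.6% of all genes. In principal cells 0 of 79 were at least 1.5-fold higher than at day 7 (10.7% of all genes) and 0 were lower (9.7% of all genes). Between day 2 and day 7 intercalated cells had 1 of 85 members higher, Ndufaf4 (12.5% of all genes), and 1 lower, Cox6b2 (7.02% of all genes). Thin limb cells had 4 members higher and 6 lower of 77 at day 2 against sham, where 16.6% and 22% of all genes were.

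Within each library the classes could be compared on a single preparation. Proximal tubule stood 1.96 above phagocytes on the log2 scale in sham (interval 1.92 to 2.00), 1.37 at day 2, 1.54 at day 7 and 1.91 after reversal. With free proximal tubule RNA subtracted from the phagocytes these values were 2.43, 1.39, 1.56 and 2.08. In sham 82 of 86 members were at least 1.5-fold higher in proximal tubule than in phagocytes, against 45.4% of all genes, and at day 7 80 of 87 were, against 29.9%. Thick ascending limb stood 0.07 above proximal tubule in sham (0.06 to 0.09) and at -0.06, -0.39 and -0.37 from it at day 2, day 7 and after reversal. With all UMIs as the denominator these values were 0.07, 0.01, -0.20 and -0.19. At day 7, 27 of 83 members were 1.5-fold lower in thick ascending limb than in proximal tubule (20.6% of all genes), against 3 of 86 in sham (20.8% of all genes). The sham order was not the same at each depth: among sham cells of 2500 to 5000 UMIs thick ascending limb held 9.59% and proximal tubule 9.99%, among those of 5000 to 10000 UMIs 10.1% and 9.48%, and among those of 1000 to 2500 UMIs 13.2% (58 cells) and 10.1%. Intercalated cells stood above principal cells in all 4 libraries, by 0.51, 0.17, 0.39 and 0.81.

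Inside proximal tubule, cells marked by genes of the first segment (S1, such as Slc5a2) and of the last (S3, such as Slc7a13) differed little. The share was 10.1% in S1-marked and 9.23% in S3-marked cells of sham, 7.09% and 6.75% at day 2, 6.71% and 7.04% at day 7, and 8.83% and 8.35% after reversal. The S1-marked cells were the higher in sham, at day 2 and after reversal, and the lower at day 7. Cell numbers were 2082 and 385 in sham but only 42 and 48 at day 7. Both kinds of cell had their 2 lowest values in the obstructed libraries.

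In proximal tubule and thick ascending limb the share of mitochondrial UMIs moved with the nuclear genes. Over all UMIs of proximal tubule cells, mitochondrially encoded RNA took 34.1% in sham, 25.2% at day 2, 21.5% at day 7 and 30.1% after reversal, and in thick ascending limb 34.2%, 21.5%, 10.6% and 20.8%. Per UMI of the 87 genes there were 5.26, 4.75, 4.19 and 5.02 mitochondrially encoded UMIs in proximal tubule, and 5.02, 4.02, 2.36 and 3.95 in thick ascending limb. In both segments the mitochondrially encoded RNA of the kept cells was thus reduced by more than the nuclear genes at day 7. The limit on the mitochondrial share had left out 1607 cells of sham, 472 of day 2, 54 of day 7 and 414 of the reversed library. These cells had no class. The shares and ratios here thus describe cells under that limit, which removed the most cells from sham and the fewest from day 7. Its part in the differences was not tested. In phagocytes mitochondrially encoded RNA took 5.97%, 3.49%, 2.90% and 3.94% of all UMIs, with sham highest, whereas with free proximal tubule RNA subtracted it took 2.07%, 3.19%, 2.75% and 2.55%, with sham lowest.

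Cells of equal mitochondrial share were therefore set side by side. Among proximal tubule cells with 30% to 40% mitochondrial UMIs the summed share was 10.3% in sham (1249 cells), 7.77% at day 2 (82 cells), 7.65% at day 7 (32 cells) and 9.65% after reversal (350 cells). Among those with up to 20% it was 7.94%, 6.24%, 5.93% and 6.66%. The order of the libraries was the same in each bin that held at least 20 cells of all 4. Depth was compared likewise: among proximal tubule cells of 2500 to 5000 UMIs the share was 9.99%, 7.34%, 7.06% and 9.03%. For thick ascending limb cells of 5000 to 10000 UMIs it was 10.1%, 6.69%, 5.07% and 6.73%. Day 2 and reversed cells of the thick ascending limb lay close together there, but among those of 2500 to 5000 UMIs the share was 7.96% at day 2 and 6.54% after reversal, against 9.59% in sham. Sham was the highest library in each of these bins.

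**Figure D5:**
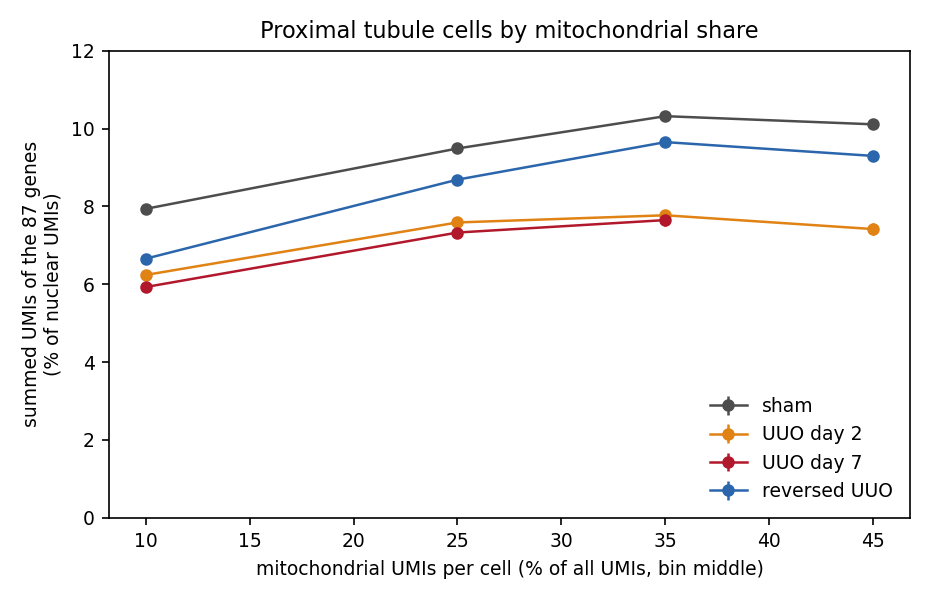
Summed UMIs of the 87 genes as a percentage of nuclear UMIs (vertical axis) in proximal tubule cells grouped by their mitochondrial share of all UMIs (horizontal axis, middle of each bin). Lines are the 4 droplet libraries, bars are counting intervals and bins under 20 cells are left out; in the bin of 30% to 40% sham lies at 10.3%, reversed at 9.65%, day 2 at 7.77% and day 7 at 7.65%.

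Markers of tubule injury (Havcr1, Krt20, Lcn2, Vcam1 and others) were followed in proximal tubule cells taken with a lower marker minimum. At day 7 the share was 7.05% in cells with up to 0.05% of nuclear UMIs in these markers (53 cells) and 5.88% in cells above 0.2% (26 cells). At day 2 the corresponding values were 7.65% (61 cells) and 6.54% (212 cells). The bins between them did not form a steady order, with 6.72% and 5.67% at day 7 and 7.18% and 7.33% at day 2. In sham it was 9.79% in cells up to 0.05%, 10.1% in those of 0.05% to 0.1% and 9.46% in those of 0.1% to 0.2%, and after reversal 8.52%, 8.49% and 8.38%. Across the 4 day 7 bins the median share of proximal tubule markers went from 5.25% to 2.91%, and its part in the difference was not tested. The cells with the fewest injury markers at day 2 and day 7 were thus also below sham. Cells that reached no class, of which there were 467 at day 2 and 69 in sham, had shares of 5.33%, 4.67%, 3.06% and 2.87% in the 4 libraries. Whether tubule cells without their markers were among them was not tested.

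Regulators of mitochondrial gene expression were read from a separate list of 14 genes. Ppargc1a, the coactivator PGC-1 alpha, had 416 CPM in sham thick ascending limb, 173 at day 2, 148 at day 7 and 296 after reversal. Its day 2 ratio was -1.26, and its level after reversal lay between those of day 7 and sham. Esrra, a nuclear receptor that works with it, had 118 CPM in sham thick ascending limb, 59.2 at day 2 and 59.7 after reversal. In that segment 5 of the 8 regulators with at least 30 UMIs were at least 1.5-fold lower at day 2, Ppargc1a, Ppargc1b, Esrra, Esrrg and Tfam (23.8% of all genes), and 0 were higher (12.4% of all genes). In proximal tubule 0 of 11 were lower at day 2 (8.32% of all genes) and 1 was higher, Ppargc1b (15.2% of all genes). Among the regulators with at least 100 UMIs over both libraries the lowest ratio there was that of Polrmt, the mitochondrial RNA polymerase, with 15.2 CPM in sham and 10.1 at day 2, and Ppargc1a had 58.2 CPM at day 2 and 46.2 at day 7.

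Enzymes of the tricarboxylic acid cycle, which feeds the chain with electrons, were lower in the same libraries as the members in thick ascending limb. Of 15, 12 were at least 1.5-fold lower at day 2 than in sham (23.8% of all genes), with a median of -0.93, and 8 were higher after reversal than at day 7 (15.5% of all genes), with a median of 0.63. Against sham 13 of 15 were still lower after reversal (15.2% of all genes), with a median of -0.74. In proximal tubule 1 of 15 was lower at day 2, near the 8.32% of all genes, with a median of -0.34 for the list. That gene was Dlst (151 CPM in sham and 79.1 at day 2), a part of the oxoglutarate dehydrogenase complex. In proximal tubule after reversal Cs, the citrate synthase gene, was the furthest above its day 7 level among those with at least 100 UMIs, at 91.0 against 47.7 CPM.

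A list of 38 partner and assembly genes was read in the same way. In proximal tubule 5 of 37 were at least 1.5-fold lower at day 2 than in sham, Cox14, Cox15, Cycs, Foxred1 and Uqcc1, against 8.32% of all genes, with a median of -0.29. The lowest ratio among those with at least 100 UMIs was that of Cox15 (22.7 CPM in sham and 10.8 at day 2), which makes the heme of cytochrome c oxidase. In thick ascending limb 6 of 31 were lower at day 2, under the 23.8% of all genes, with a median of -0.34, and 10 of 25 were lower after reversal than in sham, against 15.2% of all genes, with a median of -0.51. There Cycs, which encodes cytochrome c, had 1503 CPM in sham, 471 at day 7 and 754 after reversal. Atpif1, the inhibitor of ATP synthase, went the other way, with 910 CPM in sham, 1353 at day 2 and 1112 after reversal.

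Among 19 genes of mitochondrial import and membrane, the median ratio of day 2 to sham had opposite signs in phagocytes and tubule, a difference that was not tested. In phagocytes 12 of 19 were at least 1.5-fold higher than in sham, against 29.7% of all genes, with a median of 0.62, and 9 of 19 were lower at day 7 than at day 2, against 11.1%, with a median of -0.57. Tomm40, the import pore, had 28.1 CPM in the 63 sham phagocytes and 98.2 at day 2, on 6 and 487 UMIs. In thick ascending limb 6 of 18 were lower at day 2 than in sham (23.8% of all genes) and 0 were higher (12.4% of all genes), with a median of -0.45. In proximal tubule 2 of 19 were lower, Hspd1 and Timm23, near the 8.32% of all genes, with a median of -0.11. Hspd1, the matrix chaperonin, had 323 CPM there at day 2 and 530 at day 7.

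The Smart-seq2 wells, whose labels give no time point for a well, were not used in any comparison. Of 768 wells on 8 plates, 723 had at least 1000 genes, and all 87 members were listed. The members' summed share of nuclear reads had a median of 0.976% and quartiles of 0.740% and 1.32%, with a range from 0.0296% to 10.5%. Plate medians ran from 0.747% to 1.16%. Phagocyte markers took a median of 3.58% of nuclear reads and proximal tubule markers 0.000470%. Atp5b had reads in 93.5% of these wells and Atp5a1 in 86.2%. These are reads over whole transcripts without UMIs, so the share is on another scale than that of the droplet phagocytes.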

How the data were processed

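Each droplet library holds UMI counts per gene and cell as deposited by the authors. The submitters' processing notes name Cell Ranger, STAR, GRCm38 and mm10 without versions. The wells hold read counts per gene deposited by the authors, whose file name names featureCounts through Rsubread. How reads that match near-identical copies or pseudogenes were counted is not given in the sources used here, so members with close copies are uncertain.

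Members and gene lists were chosen with earlier results of these data known. The marker genes were set with the design, but the rule that scores them, its settings, the lower gate, all bins, the S1 and S3 split, the mural and plasmacytoid lists and the motifs were chosen after the files were seen. The gate settings were judged on cell numbers per class and not on member values.

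Cells under 200 genes or over 50% mitochondrial UMIs were left out, and the highest Scrublet scores were removed as likely doublets, at a rate of 0.8% per 1000 cells (47 to 184 cells per library). A class score was the marker share divided by its median in the 100 highest cells. A cell joined a class with at least 3 of its markers detected, a score of at least 0.1 and at least 2 times that of the next class, and cells over 5% haemoglobin UMIs were left out. The stricter gate used 0.2 and 4 times, the lower gate 0.05.

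UMIs were summed per class and library. Shares carry exact Clopper-Pearson intervals and ratios exact conditional binomial intervals, both at 95%. Member ratios used 1 CPM as pseudocount and members with at least 30 UMIs over both libraries. Named members were the isoform sets, the members with most UMIs per complex and those with the highest and lowest ratios among members with at least 100 UMIs, and named pathway genes those with the highest and lowest ratios among list genes with at least 100 UMIs over both libraries. Genes that a count of 5 or fewer refers to were named after their values were seen. Some genes that these rules name are not reported here. No p-value was computed, since each condition had 1 library. S1-marked cells had at least 3 S1 marker UMIs and 4 times as many as S3 marker UMIs, and S3-marked cells at least 3 S3 marker UMIs and no fewer than S1 marker UMIs. The ratio script was tested on simulated data. Python 3.11.15, numpy 2.4.6, pandas 2.3.3, scipy 1.17.1, scanpy 1.11.5 and matplotlib 3.10.9 were used, with edgeR 4.0.16 and DESeq2 1.42.0 under R 4.3.3 for scaling factors only. Gene positions came from GENCODE vM21 and promoters from RefSeq, both on GRCm38. Settings tried in addition are those of the closing section.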

Additional observations from a re-analysis of the deposited data

How the results depend on the processing

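No paired analysis was possible because each condition had 1 library, and for the same reason no library could be left out in turn. Depth limits the classes with few cells: sham held 63 phagocytes and 42 distal convoluted tubule cells, and day 7 held 146 proximal tubule cells. The cause of each difference between settings was not tested. The log2 ratios of the summed share are listed in the order day 2 to sham, day 7 to day 2, reversed to day 7 and reversed to sham. With TMM factors they were -0.63, -0.23, 0.46 and -0.40 in proximal tubule, -0.36, -0.55, 0.29 and -0.62 in thick ascending limb, 0.22, -0.30, -0.015 and -0.092 in phagocytes and -0.045, -0.28, -0.014 and -0.34 in endothelium. The TMM factors shifted all genes by -0.16, -0.12, 0.07 and -0.20 in proximal tubule and by 0.24, -0.10, -0.13 and 0.02 in thick ascending limb. With median-of-ratios size factors they were -0.61, -0.21, 0.41 and -0.41 in proximal tubule, -0.39, -0.54, 0.28 and -0.65 in thick ascending limb, 0.25, -0.34, 0.0075 and -0.089 in phagocytes and -0.055, -0.31, -0.011 and -0.38 in endothelium. With all UMIs as the denominator they were -0.29, -0.046, 0.22 and -0.11 in proximal tubule, -0.35, -0.26, 0.24 and -0.37 in thick ascending limb, 0.16, -0.28, 0.0055 and -0.12 in phagocytes and -0.13, -0.27, 0.027 and -0.37 in endothelium, and within sham, day 2, day 7 and reversed libraries proximal tubule over phagocytes was 1.45, 1.00, 1.24 and 1.46 and thick ascending limb over proximal tubule 0.073, 0.012, -0.20 and -0.19. With each cell counted equally they were -0.44, -0.11, 0.37 and -0.18 in proximal tubule, -0.62, -0.47, 0.47 and -0.63 in thick ascending limb, 0.14, -0.33, 0.00033 and -0.19 in phagocytes and -0.21, -0.26, 0.065 and -0.40 in endothelium. With free proximal tubule RNA subtracted they were 0.56, -0.28, -0.12 and 0.16 in phagocytes and 0.15, -0.29, -0.090 and -0.22 in endothelium. With phagocyte RNA subtracted, added after seeing the data, they were -0.45, -0.045, 0.33 and -0.16 in proximal tubule and -0.58, -0.41, 0.38 and -0.61 in thick ascending limb. With a limit of 20% mitochondrial UMIs they were -0.36, -0.10, 0.20 and -0.26 in proximal tubule and -0.44, -0.37, 0.00082 and -0.81 in thick ascending limb. With the stricter gate they were -0.35, -0.15, 0.37 and -0.14 in proximal tubule, -0.51, -0.45, 0.47 and -0.48 in thick ascending limb, 0.21, -0.32, 0.033 and -0.086 in phagocytes and -0.19, -0.27, 0.057 and -0.40 in endothelium. With a lower gate minimum, chosen after seeing the data, they were -0.48, -0.13, 0.40 and -0.21 in proximal tubule, -0.66, -0.43, 0.38 and -0.72 in thick ascending limb and 0.13, -0.26, 0.0037 and -0.13 in phagocytes. With no removal by doublet score they were 0.13, -0.30, 0.023 and -0.14 in phagocytes and -0.21, -0.25, 0.059 and -0.39 in endothelium. Counts of members past the fold that moved are given with the share of all genes past it under the same setting. Not every count that moved is listed. With at least 100 UMIs per gene they were 1 higher (9.63%) for day 7 vs day 2 in proximal tubule, 4 lower (12%) for reversed vs sham in phagocytes, 1 lower (9.29%) for day 2 vs sham in endothelium, 3 lower (7.35%) for day 7 vs day 2 in endothelium and 0 higher (3.04%) for reversed vs day 7 in endothelium. With a fold of 2 they were 2 lower (2.48%) for day 2 vs sham in proximal tubule, 1 higher (4.91%) for day 7 vs day 2 in proximal tubule, 3 higher (5.05%) for reversed vs day 7 in proximal tubule, 2 lower (8.54%) for day 2 vs sham in thick ascending limb, 0 lower (2.49%) for day 7 vs day 2 in thick ascending limb, 2 higher (4.35%) for reversed vs day 7 in thick ascending limb, 2 lower (3.96%) for reversed vs sham in thick ascending limb, 3 higher (17.7%) for day 2 vs sham in phagocytes, 0 lower (3.43%) for day 7 vs day 2 in phagocytes, 2 lower (5.86%) for reversed vs sham in phagocytes, 0 lower (4.3%) for day 2 vs sham in endothelium, 1 lower (3.15%) for day 7 vs day 2 in endothelium, 0 higher (1.82%) for reversed vs day 7 in endothelium and 2 lower (3.55%) for reversed vs sham in endothelium. With no filter on low counts (shares over genes with any UMI) they were 7 lower (24.4%) for day 2 vs sham in endothelium and 2 higher (16.9%) for reversed vs day 7 in endothelium. With free proximal tubule RNA subtracted, added after seeing the data, they were 36 higher (34%) for day 2 vs sham in phagocytes and 7 lower (12.3%) for reversed vs sham in endothelium. Lower counts in phagocytes were then 4 (6.35%) for reversed vs day 7 and 5 (16.2%) for reversed vs sham. With phagocyte RNA subtracted the count was 7 higher (15.8%) for reversed vs day 7 in proximal tubule. In thick ascending limb the lower counts were then 30 (23.5%) for day 2 vs sham, 20 (10%) for day 7 vs day 2 and 45 (15%) for reversed vs sham. The higher count for reversed vs day 7 there was 13 (15.9%). Leaving out the assembly factors moved no summed ratio beyond its counting interval, and was not run for the counts of members. A pseudocount of 10 CPM moved no median member ratio by 0.1 or more. These settings were run for proximal tubule, thick ascending limb, phagocytes and endothelium, and ratios between libraries of the other 4 classes were not recomputed under them. In the 4 classes run, the direction of the summed ratio turned for reversed to day 7 and reversed to sham in phagocytes, and for day 2 to sham and reversed to day 7 in endothelium, under the settings given, and for thick ascending limb over proximal tubule at day 2 with all UMIs.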
